A study of Rattus norvegicus with 6 samples.

Results

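A set of 10 genes that are widely used as astrocyte markers was followed through RNA-seq libraries of cultured rat oligodendrocyte precursor cells (OPCs), the progenitors of the myelinating glia. The 10 members were Gfap, Vim, Nes, Aqp4, Gja1, Gjb6, Aldh1l1, Aldoc, Glul and Apoe, taken by gene name from the 32883 genes of the deposited table, and each name matched 1 entry. Cells from the cerebral cortex of newborn (P0) Sprague Dawley rats were grown as a mixed culture in serum, the OPCs were shaken off the flask, and the replated cells received 5 µM ZJU-37, an inhibitor of the kinase RIPK1, or an equal volume of its solvent DMSO. The labels give a treatment of 36 h, and the study's methods give a shorter time for the RNA-seq. Each group had 3 libraries of poly-A RNA, numbered 1 to 3 in the labels, and the labels name no genetic change in either group.

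Astrocytes are the glial cells that take up potassium, glutamate and water around neurons and vessels. Their skeleton is built from intermediate filaments, of which GFAP is typical of the mature cell and vimentin and nestin of immature and dividing glia. They are coupled by connexin gap junctions, carry the water channel aquaporin 4 on their endfeet, and turn glutamate into glutamine. In a mixed cortical culture they form the layer that stays on the flask when OPCs are shaken off. Vim, Nes, Glul and Apoe are also made by other glia, by progenitors or by microglia, and are the less specific members.

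The libraries held between 13935865 and 24097927 counts, so that 3 counts, the limit that a count of 0 allows, correspond to between 0.124 and 0.215 CPM, and this limit covers counting error only. CPM stands for counts per 1e6 counts of a library, with TMM factors applied to the library sizes except in this limit. The test was edgeR's quasi-likelihood test, run over all 14670 genes that passed the filter on low counts, and an adjusted p-value is Benjamini-Hochberg adjusted over all of them. Libraries with the same replicate number deviated together from their group means. The same fit with the replicate number as a block compares the libraries within each numbered pair. It is given for every member whose call it changes, and for some of the gene lists. The OPC label was checked against its markers. Olig2, Sox10, Pdgfra and Cspg4, which define the lineage, had means of 502, 655, 394 and 166 CPM with DMSO. Markers of other cells were also present. The summed mature oligodendrocyte markers ran from 11189 to 22638 CPM with DMSO, above the summed OPC markers at 4114 to 4736 CPM. Such sums depend on the genes on each list. Csf1r, the receptor of microglial growth factors, had a mean of 673 CPM with DMSO and Tubb3, a neuronal tubulin, 150.5 CPM. In such bulk RNA, fewer cells of a type and less RNA per cell cannot be told apart.

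The 10 members did not move as a group. Vim rose 2.06-fold and Nes 2.39-fold with ZJU-37, and Aldoc fell to 0.55 of its DMSO level. Gfap, Aqp4, Gja1 and Apoe were lower in every numbered pair and fell in the fit with the replicate block, whereas their groups overlapped and they did not pass the test without it. Glul and Aldh1l1 passed neither fit, and Gjb6 was practically without counts. Of the 9 members tested, 2 were thus higher and 1 lower at an adjusted p-value under 0.05, where 9.43% of all tested genes were higher and 5.58% lower, 15.0% in all. With the replicate block 2 were higher and 5 lower, where 16.2% of all tested genes were higher and 15.9% lower, 32.1% in all. DESeq2 on the same counts, without the block, also called 2 higher and 1 lower. Over all genes it called 1564 higher and 1091 lower, against 1383 and 818 in edgeR. In simulated counts without pairing, the share of false calls was above the threshold in both fits and larger with the block. The libraries here did deviate together by replicate number, so that simulation cannot tell how certain the calls made with the block only are. Those calls did not pass the test without the block.

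**Figure D1:**
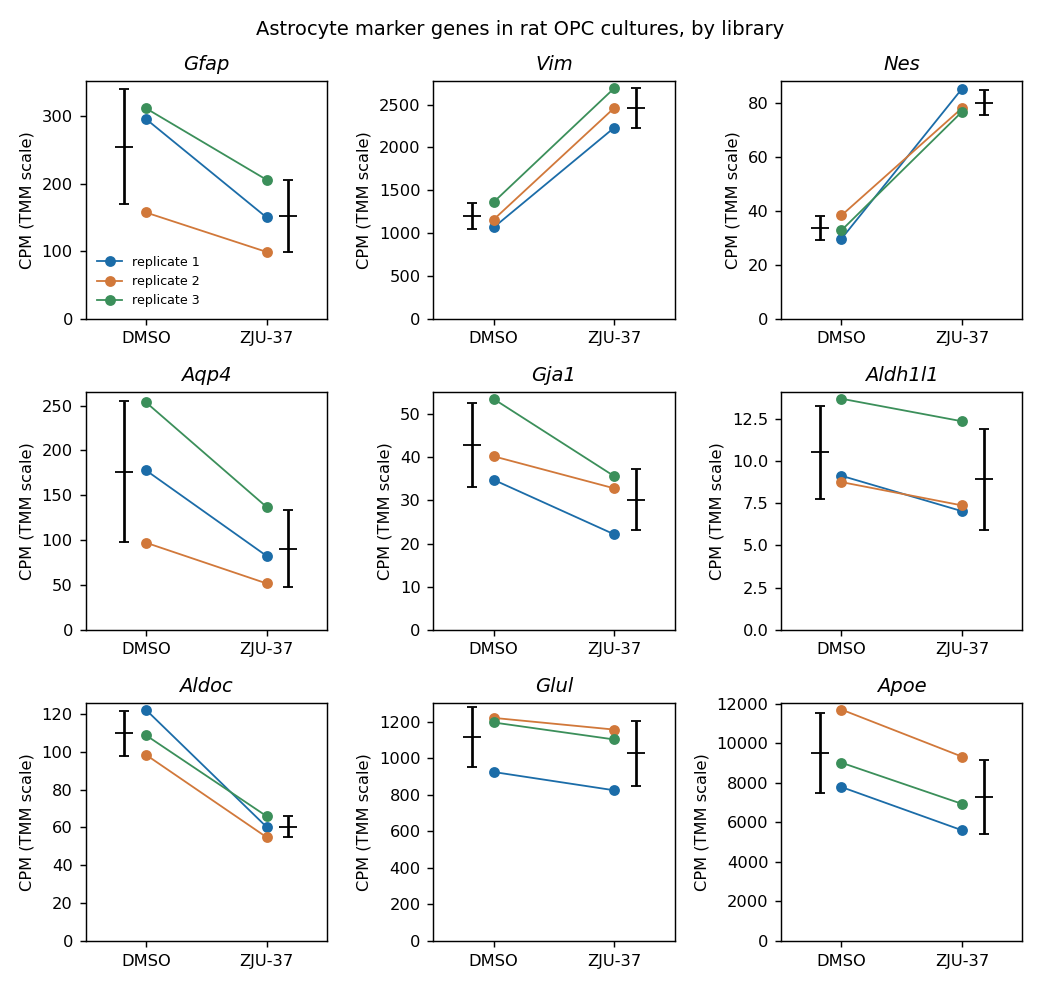
Level of each of the 9 tested members in CPM (TMM scale, linear axes from 0) in the 3 DMSO and 3 ZJU-37 libraries. Points are libraries, lines join libraries with the same replicate number, and black bars give the mean ± SD of 3 libraries. Every line rises for Vim and Nes and falls for the other 7 genes.

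Vim encodes vimentin, the filament protein of immature astrocytes, of glial progenitors and of mesenchymal cells. The table places it on chromosome 17, bases 80882666 to 80891212, plus strand, in a build that the sources used here do not name. With DMSO it was measured at 1065, 1157 and 1361 CPM in libraries 1 to 3, and with ZJU-37 at 2232, 2463 and 2694 CPM. Each ZJU-37 library was well above each DMSO library, and the order of the replicate numbers was the same in both groups. The mean went from 1195 ± 151 to 2463 ± 231 CPM (± SD, n = 3 per group). This was a log2 fold change of 1.04 ± 0.12 (SE), with an adjusted p of 0.00195 in edgeR. Within pairs 1 to 3 the differences were 1.07, 1.09 and 0.98 on the log2 scale.

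Nes encodes nestin, a filament protein of neural stem and progenitor cells that assembles with vimentin. Its place is chromosome 2, bases 187344056 to 187352969, plus strand. DMSO libraries 1 to 3 held 29.7, 38.4 and 32.8 CPM, and ZJU-37 libraries 1 to 3 held 85.5, 78.3 and 77.0 CPM. The groups stood far apart, and the library that was lowest with DMSO, replicate 1, was highest with ZJU-37. The mean went from 33.6 ± 4.40 to 80.3 ± 4.61 CPM (± SD, n = 3 per group), and the log2 fold change of 1.25 ± 0.10 (SE) had an adjusted p of 5.97e-04 in edgeR, and was the largest of the 9 tested members in size. The pair differences ran from 1.03 in replicate 2 to 1.53 in replicate 1. Vim and Nes were among the 19.0% of all tested genes whose ZJU-37 libraries were all higher than the DMSO libraries.

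Gfap encodes the glial fibrillary acidic protein, the most used marker of astrocytes. It lies on chromosome 10 (90990762 to 90999506, minus strand). The 3 DMSO libraries held 296, 157 and 312 CPM in the order of their numbers, and the 3 ZJU-37 libraries 150.0, 98.9 and 206 CPM. DMSO replicate 2 lay below ZJU-37 replicate 3, so the groups overlapped, but in each group replicate 2 was lowest and replicate 3 highest. The DMSO libraries differed among themselves by a factor of 1.98, and the ZJU-37 libraries by 2.08. The mean went from 255 ± 85.0 to 152 ± 53.5 CPM (± SD, n = 3 per group). This was a log2 fold change of -0.75 ± 0.34 (SE), with an adjusted p of 0.214 in edgeR. The pair differences were -0.98, -0.67 and -0.60, and with the replicate block the log2 fold change was -0.75 ± 0.08 (SE) at an adjusted p of 1.55e-04 (edgeR).

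The filament genes stood in different proportions in DMSO and ZJU-37 libraries. Per kilobase of gene length, the Vim level was 7.09, 14.5 and 8.60 times the Gfap level in DMSO libraries 1 to 3, and 29.3, 49.1 and 25.8 times in ZJU-37 libraries 1 to 3. This ratio does not depend on the scaling between libraries, and the lowest ZJU-37 value was above the highest DMSO value. The ratio of Vim to Nes, by contrast, ran from 98.9 to 136 with DMSO and from 85.5 to 115 with ZJU-37, and the ranges overlapped.

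Start regions are shown for the 3 filament members and for Aldoc, the members called without the block together with Gfap, so that the members that rose and those that were lower can be read side by side. Each line gives the 250 bases before the annotated start from RefSeq on assembly GRCr8, 5′ to 3′ on the strand of the gene, and all 10 members had an entry there. GRCr8 coordinates cannot be set beside those of the deposited table. Capitals mark matches on either strand to the NF-κB consensus, to the GC box GGGCGG or to the TATA box TATAAA. NF-κB, a transcription factor downstream of RIPK1, is shown because the study examined it.
Vim, chr17:81577011-81577260, plus strand: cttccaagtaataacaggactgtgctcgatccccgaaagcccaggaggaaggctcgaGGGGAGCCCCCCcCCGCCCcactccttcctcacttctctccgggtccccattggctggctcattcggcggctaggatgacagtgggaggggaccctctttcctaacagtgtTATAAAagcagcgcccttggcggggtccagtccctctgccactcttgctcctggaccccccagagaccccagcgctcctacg
Nes, chr2:175736338-175736587, plus strand: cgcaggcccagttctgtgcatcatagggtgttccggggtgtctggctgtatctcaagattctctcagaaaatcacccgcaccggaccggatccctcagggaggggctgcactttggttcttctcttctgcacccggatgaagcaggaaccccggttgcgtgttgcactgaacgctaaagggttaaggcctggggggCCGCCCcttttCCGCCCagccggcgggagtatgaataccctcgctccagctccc
Gfap, chr10:88361662-88361911, minus strand: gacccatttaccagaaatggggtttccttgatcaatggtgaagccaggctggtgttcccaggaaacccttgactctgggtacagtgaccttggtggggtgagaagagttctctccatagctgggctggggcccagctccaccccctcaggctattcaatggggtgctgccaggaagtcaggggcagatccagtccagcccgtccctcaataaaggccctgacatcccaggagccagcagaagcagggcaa
Aldoc, chr10:63715294-63715543, plus strand: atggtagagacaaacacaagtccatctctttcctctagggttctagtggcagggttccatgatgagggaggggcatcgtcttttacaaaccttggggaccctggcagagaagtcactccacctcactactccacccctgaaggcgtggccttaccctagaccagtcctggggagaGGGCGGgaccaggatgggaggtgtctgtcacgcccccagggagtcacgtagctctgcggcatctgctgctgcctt

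In the Vim window, 3 overlapping matches to the NF-κB consensus formed a run of 12 bases that began 193 bases before the start, followed by a GC box at 180 bases and a TATA box at 82 bases before the start. Nes held GC boxes at 54 and 43 bases and Aldoc a GC box at 75 bases before the start. Gfap held none of these letters. Of the 33469 start regions in the RefSeq table, 6.33% held the NF-κB consensus, 30.5% the GC box and 12.9% the TATA box in the same window. A match of letters is not a site of binding. A STAT site (TTCNNNGAA, in 7.67% of start regions) and an AP-1 site (TGANTCA, in 6.34%), searched on both strands, were in none of the 4 windows. Of the other members' windows, not printed, 1 of the Aqp4 start regions also held the NF-κB consensus, and that of Gja1 the AP-1 site. Apoe, Aldh1l1, Glul, Gjb6 and Aqp4 each had a start region with the GC box, and Gja1 had none.

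Aqp4 encodes the water channel of astrocyte endfeet. Its place is chromosome 18, bases 6765945 to 6782996, minus strand. With DMSO it was measured at 178, 97.2 and 254 CPM in libraries 1 to 3, and with ZJU-37 at 82.4, 51.7 and 137 CPM. The libraries took the same order as for Gfap, with replicate 2 lowest and replicate 3 highest in each group, and the groups overlapped. The mean went from 176 ± 78.3 to 90.4 ± 43.2 CPM (± SD, n = 3 per group). This was a log2 fold change of -0.96 ± 0.45 (SE), with an adjusted p of 0.223 in edgeR. The DMSO libraries spanned a factor of 2.61, whereas the pair differences were close to each other, at -1.11, -0.91 and -0.89. With the replicate block the standard error was 0.06 and the adjusted p-value 2.67e-06 (edgeR).

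Gja1 encodes connexin 43, the main gap junction protein of astrocytes. It lies on chromosome 20 (37876650 to 37889089, plus strand). DMSO libraries 1 to 3 held 34.8, 40.2 and 53.5 CPM, and ZJU-37 libraries 1 to 3 held 22.1, 32.8 and 35.6 CPM. Replicate 1 was lowest and replicate 3 highest in each group, and the upper ZJU-37 library lay above the lowest DMSO library. The log2 fold change was -0.51 ± 0.22 (SE), with an adjusted p of 0.201 in edgeR, with pair differences of -0.65, -0.30 and -0.59, and with the replicate block the adjusted p-value was 0.00113 (edgeR).

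Gjb6, which encodes the other astrocyte connexin, connexin 30 and lies on chromosome 15 (37400889 to 37410848, minus strand), had 1 count in DMSO replicate 1 and 0 in the other 5 libraries, and it did not pass the filter on low counts. No change with ZJU-37 was detectable for it at this depth, where 0 counts allow up to between 0.124 and 0.169 CPM in those 5 libraries. The 2 astrocyte connexins thus stood far apart in these cultures. Gjb2, a further connexin of astrocytes, was also low, with 0.293 ± 0.140 CPM with DMSO and 0.307 ± 0.171 CPM with ZJU-37 (± SD, n = 3 per group), and was not tested.

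Aldoc encodes aldolase C, a brain form of the glycolytic enzyme. Its place is chromosome 10, bases 65586504 to 65590126, plus strand. The 3 DMSO libraries held 122, 98.4 and 109 CPM in the order of their numbers, and the 3 ZJU-37 libraries 60.2, 54.8 and 65.9 CPM. It was the member that fell with no overlap between the groups, as did 16.2% of all tested genes. The mean went from 109.8 ± 11.9 to 60.3 ± 5.56 CPM (± SD, n = 3 per group), and the log2 fold change of -0.86 ± 0.10 (SE) had an adjusted p of 0.00235 in edgeR, with pair differences of -1.02, -0.84 and -0.72.

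Aldh1l1 encodes a folate enzyme that is used as a general astrocyte marker. It lies on chromosome 4 (123516788 to 123557501, minus strand). It was the weakest of the tested members. With DMSO it was measured at 9.13, 8.76 and 13.7 CPM in libraries 1 to 3, and with ZJU-37 at 7.03, 7.37 and 12.4 CPM. Replicate 3 was the highest library in each group. The log2 fold change was -0.24 ± 0.28 (SE), with an adjusted p of 0.643 in edgeR, and the pair differences were -0.38, -0.25 and -0.15. It did not pass with the replicate block either (adjusted p = 0.130, edgeR). Without DMSO replicate 3 the log2 fold change was 1.19e-04.

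Glul encodes glutamine synthetase, which converts glutamate and ammonia to glutamine in astrocytes and in oligodendrocyte lineage cells. Its place is chromosome 13, bases 71331052 to 71340229, plus strand. DMSO libraries 1 to 3 held 925, 1222 and 1197 CPM, and ZJU-37 libraries 1 to 3 held 825, 1157 and 1103 CPM. The groups overlapped almost wholly, and replicate 1 was lowest in each. The log2 fold change was -0.12 ± 0.16 (SE), with an adjusted p of 0.700 in edgeR, with pair differences between -0.17 and -0.08, and an adjusted p-value of 0.0916 with the replicate block (edgeR). Without ZJU-37 replicate 1 the log2 fold change was 0.04.

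Apoe encodes apolipoprotein E, the main lipid carrier of the brain, made by astrocytes and microglia. It lies on chromosome 1 (80612895 to 80617057, minus strand) and ranked 2 among all genes of the table by mean CPM. The 3 DMSO libraries held 7787, 11705 and 9017 CPM in the order of their numbers, and the 3 ZJU-37 libraries 5596, 9321 and 6931 CPM. Replicate 1 was lowest and replicate 2 highest in each group, as for Glul. The summed microglia markers also stood in this order, and Gfap and Aqp4 in another. Whether a shared order reflects a shared source was not tested. The mean went from 9503 ± 2004 to 7283 ± 1887 CPM (± SD, n = 3 per group). This was a log2 fold change of -0.38 ± 0.23 (SE), with an adjusted p of 0.333 in edgeR. The pair differences were -0.48, -0.33 and -0.38, and with the replicate block the adjusted p-value was 3.24e-04 (edgeR).

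**Figure D2:**
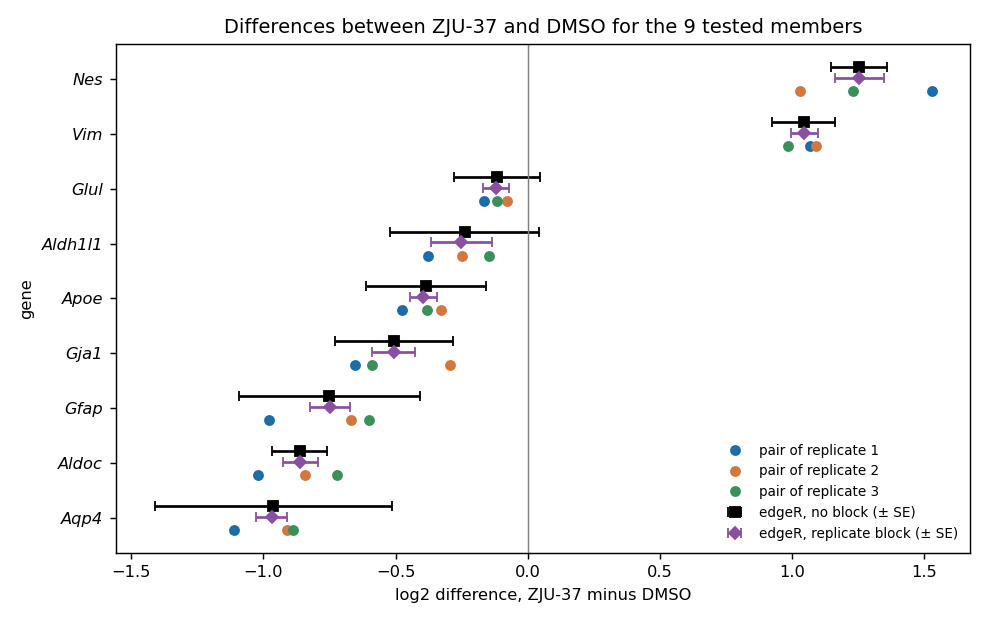
Log2 difference between ZJU-37 and DMSO for the 9 tested members. Squares and diamonds give the edgeR estimate ± standard error without and with the replicate block, and circles the 3 pairs. The pair values of Aqp4 lie between -1.11 and -0.89, while its standard error without the block is 0.45.

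All 7 members with a negative log2 fold change were lower in all 3 pairs, as were 33.3% of all tested genes, and Vim and Nes were higher in all 3, as were 28.4% of all tested genes. The median log2 fold change of the 9 tested members was -0.38, against -0.03 for all tested genes, and hides that 2 of them rose. For 6 of the 9 members the 3 replicate numbers stood in the same order in both groups. Libraries of the same number also deviated together across all tested genes, and the share of these with a shared order was not counted. For the 6 members with overlapping groups, the DMSO libraries differed among themselves by a larger factor than the group means did. When each replicate number in turn was left out of the fit with the block, 5 members were lower and 2 higher in each fit, with the log2 fold change of Gfap between -0.83 and -0.63 and that of Aqp4 between -1.01 and -0.89. These fits were chosen after seeing the data.

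Apoe made up most of the summed level of the 10 members. The sum was 12440.2 ± 2040 CPM with DMSO and 11196 ± 2103 CPM with ZJU-37 (± SD, n = 3 per group). Without Apoe the sum was 2937 ± 351 CPM with DMSO and 3913 ± 434 CPM with ZJU-37, and was higher in all 3 pairs. Without Apoe, Vim and Glul it was 628 ± 171 CPM and 422 ± 106 CPM, and was lower in all 3 pairs. The direction of such a sum thus differed with the members it held.

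Per kilobase of gene length, the members spanned more than 3 orders of magnitude. With DMSO, Apoe stood at 6111 ± 1289 CPM per kilobase, Vim at 643 ± 81.5, Glul at 448 ± 66.1, Gfap at 69.7 ± 23.2, Aldoc at 65.2 ± 7.09, Aqp4 at 32.5 ± 14.5, Gja1 at 13.7 ± 3.08, Nes at 5.52 ± 0.724 and Aldh1l1 at 3.50 ± 0.915 CPM per kilobase (± SD, n = 3 per group). Gfap and Aldoc, neighbours in this order, did not differ beyond their spread, and the lowest Gfap library, at 43.0, lay below the highest Aqp4 library, at 46.8. With ZJU-37 the order was the same except that Nes, at 13.2 ± 0.757, passed Gja1, at 9.65 ± 2.27 CPM per kilobase. Against lineage markers on the same scale, Gfap with DMSO was below Olig2 (189 ± 15.3), above Cspg4 (20.5 ± 1.499) and within its spread of Pdgfra (60.4 ± 7.56 CPM per kilobase). With ZJU-37, Gfap at 41.4 ± 14.6 was below Olig2 (180.0 ± 25.0) and Pdgfra (129 ± 38.2) and within its spread of Cspg4 (42.2 ± 7.81 CPM per kilobase).

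**Figure D3:**
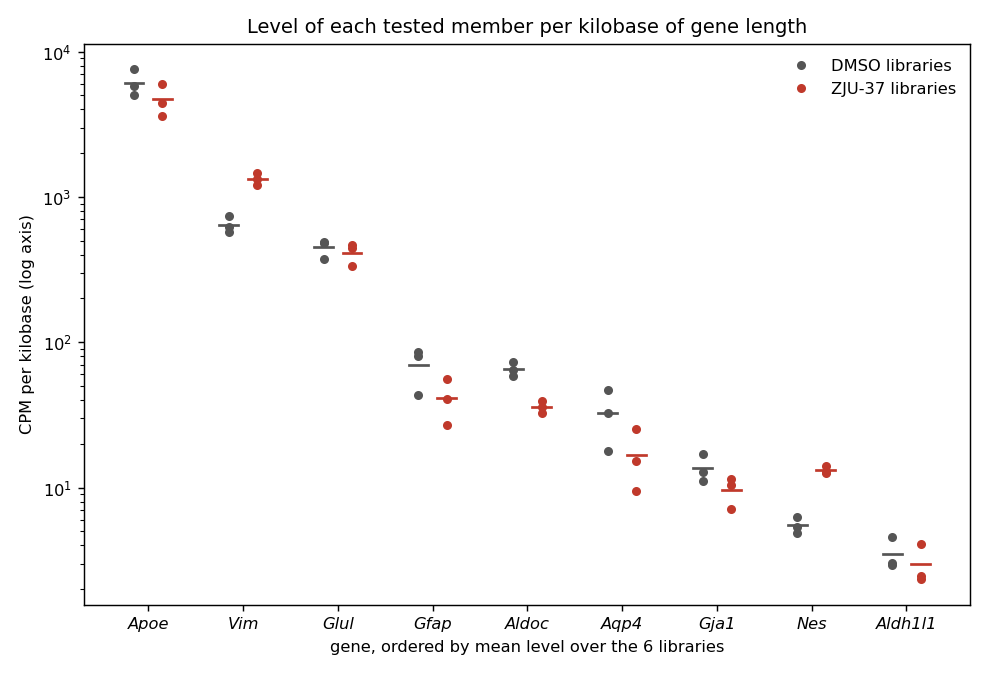
CPM per kilobase of gene length (log axis) of the 9 tested members, ordered by their mean over 6 libraries. Points are libraries and short lines group means. Nes moves from below Gja1 with DMSO to above it with ZJU-37.

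Further astrocyte genes were read from a list of 33 genes, of which 30 were in the table and 28 were tested. For this and the following lists, the shares over all tested genes were 9.43% higher and 5.58% lower without the block in edgeR. With the block they were 16.2% and 15.9%. Without the block 6 were higher and 0 lower in edgeR (3 lower at an unadjusted p-value under 0.05, and 3 lower in DESeq2). With the replicate block 9 were higher and 8 lower. The median log2 fold change of the list was -0.04, close to that of all tested genes.

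The 6 that rose were F3, Slc7a10, Hepacam, Gldc, Sox9 and Fabp7. F3, the tissue factor that starts coagulation, rose from 24.8 ± 2.72 to 75.1 ± 5.60 CPM (± SD, n = 3 per group), a log2 fold change of 1.60 (adjusted p = 3.20e-04, edgeR). Hepacam, a cell adhesion protein of glia, rose from 54.5 ± 3.07 CPM to 108 ± 9.80 CPM (log2 fold change 0.98, adjusted p = 6.67e-04, edgeR). Fabp7, the brain fatty acid binding protein of radial glia, rose from 465 ± 41.1 CPM to 625 ± 47.7 CPM (log2 fold change 0.43), and Sox9, a factor needed for gliogenesis, from 21.4 ± 2.46 CPM to 30.9 ± 3.24 CPM (log2 fold change 0.53). Slc7a10, a neutral amino acid carrier, had a log2 fold change of 1.17 and Gldc, of the glycine cleavage system, one of 0.72. Ppp1r3c, S100b and Atp1b2 were higher with the block as well, with log2 fold changes of 0.61, 0.26 and 0.17. The calls of Sox9 and Fabp7 were each lost in 4 of the 6 fits that left out 1 library (DMSO replicate 1 or 2, ZJU-37 replicate 1 or 3), and those of the other 4 in none.

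The 8 that were lower with the block were Mlc1, Acsbg1, Kcnj10, Clu, Chrdl1, Ndrg2, Sparcl1 and Fgfr3. Mlc1, a membrane protein of astrocyte endfeet, had a log2 fold change of -0.70 with the block (adjusted p = 3.13e-05, edgeR), against an adjusted p-value of 0.121 without it. Kcnj10, the potassium channel Kir4.1, had one of -0.51 (adjusted p = 2.08e-04 with the block and 0.0845 without it, edgeR). Clu, the secreted chaperone clusterin, had one of -0.50 and Acsbg1, an acyl-CoA synthetase, one of -0.62. The glutamate transporters of astrocytes did not pass either fit. Slc1a3 stood at 714 ± 134 CPM with DMSO and 704 ± 110 CPM with ZJU-37, and Slc1a2 at 22.4 ± 5.15 CPM and 22.3 ± 5.57 CPM (± SD, n = 3 per group).

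**Figure D4:**
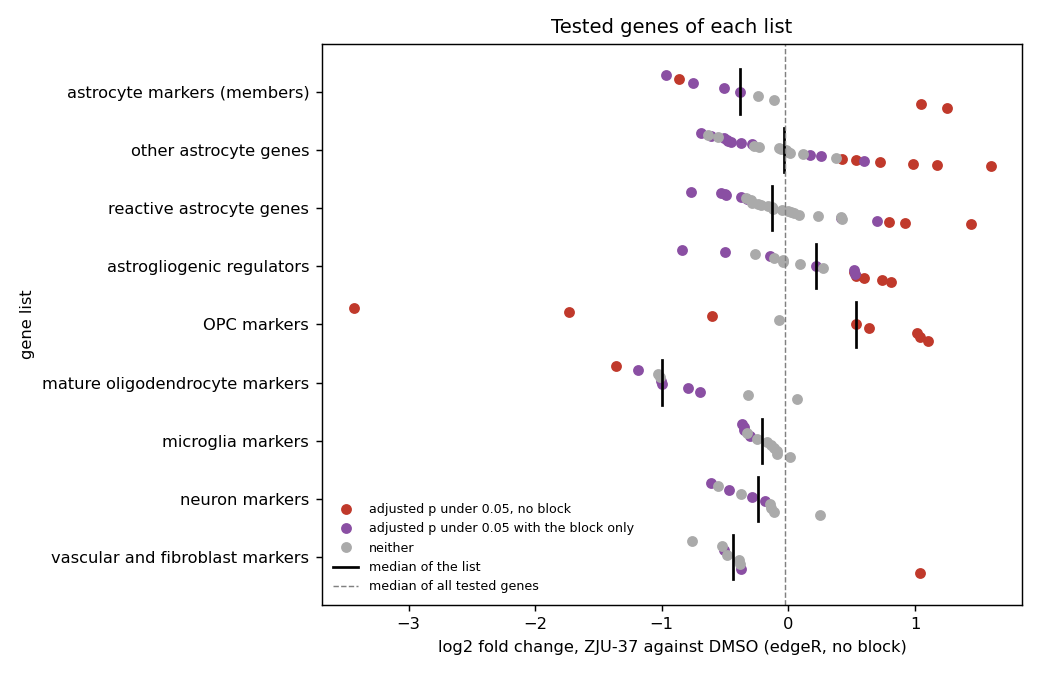
Log2 fold change (edgeR, no block) of every tested gene of 9 lists, with the list median as a black line and the median of all tested genes, -0.03, as a dashed line. Red points passed without the block, purple points only with it, grey points in neither fit. The members and the other astrocyte genes hold points on both sides of 0, and 11 of the 12 microglia genes lie below 0.

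Partners of the members differed gene by gene. Among 10 tested filament partners 3 were higher without the block and 0 lower in edgeR (1 lower at an unadjusted p-value under 0.05, and 1 lower in DESeq2). These were the nuclear lamins Lmnb1 (log2 fold change 1.02) and Lmnb2 (0.68), and Prph, a neuronal filament protein at 1.04 ± 0.339 CPM with DMSO (1.59), whose call was lost without ZJU-37 replicate 3. Synm, a partner of vimentin in the filament, had a log2 fold change of 0.21 (adjusted p = 0.651, edgeR) and Plec, the linker plectin, one of -0.43 with the block (adjusted p = 0.0336, edgeR).

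Among 9 tested connexins and pannexins, Gja1 included, 1 was higher without the block and 0 lower in edgeR (1 lower at an unadjusted p-value under 0.05, and 1 lower in DESeq2). Gjc1, connexin 45, rose from 8.04 ± 1.25 to 12.8 ± 1.96 CPM (± SD, n = 3 per group; log2 fold change 0.67, adjusted p = 0.0435, edgeR), a call kept only without DMSO replicate 3 or ZJU-37 replicate 2 when 1 library was left out. With the block 3 were lower, Gja1, Panx1 and Gjc3, of which Gjc3 is a connexin of oligodendrocytes (log2 fold change -0.80, adjusted p = 0.0231, edgeR). Among 9 tested aquaporins and anchors, Aqp4 included, Dtna, a dystrobrevin, and Aqp11 rose (log2 fold changes 0.52 and 0.80), and Dmd, dystrophin, fell (-0.59). These calls were near the threshold. Leaving out any library lost that of Aqp11, leaving out any but DMSO replicate 2 that of Dmd, and leaving out DMSO replicate 2, DMSO replicate 3 or ZJU-37 replicate 3 that of Dtna.

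Of 10 tested genes of glutamate and glutamine handling, Glul included, Slc38a3 and Slc38a1 rose and Glud1 fell. Slc38a3, which exports glutamine from astrocytes, rose from 9.68 ± 0.799 to 23.6 ± 3.17 CPM (± SD, n = 3 per group; log2 fold change 1.29, adjusted p = 0.00126, edgeR). Glud1, glutamate dehydrogenase, fell by 0.30 on the log2 scale (adjusted p = 0.0351, edgeR), and its call was lost in 5 of the 6 fits that each left out 1 library, all but that without ZJU-37 replicate 2. Of the aldolases, Aldoa, the form of most tissues, stood at 913 ± 23.9 CPM with DMSO and 659 ± 113 CPM with ZJU-37, a log2 fold change of -0.47 (adjusted p = 0.0550, and 0.0290 with the block, edgeR). Aldh1l2, the mitochondrial counterpart of Aldh1l1, rose by 0.68 on the log2 scale (adjusted p = 0.0306, edgeR), a call kept only without DMSO replicate 1 or 3 when 1 library was left out.

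Genes that load, bind or degrade lipoproteins were mostly lower with the block. Of 13 tested, Apoe included, 0 were higher and 1 was lower without the block in edgeR (0 higher and 4 lower at an unadjusted p-value under 0.05, and 0 higher and 2 lower in DESeq2). The lower call was lost without any single library other than DMSO replicate 2. With the block 10 were lower and 0 higher (0 higher at an unadjusted p-value under 0.05), where 15.9% of all tested genes were lower. Among them were Apod, an apolipoprotein of glia (log2 fold change -1.19), the cholesterol exporters Abca1 (-0.18) and Abcg1 (-0.36), and Nr1h3, a liver X receptor (-0.48).

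Genes that rise in reactive astrocytes were called in both directions with the block. Of 28 tested, 3 were higher and 0 lower without the block in edgeR (2 lower at an unadjusted p-value under 0.05, and 1 lower in DESeq2), and 5 were higher and 6 lower with it. Over all tested genes 9.43% were higher and 5.58% lower without the block, and 16.2% and 15.9% with it. S100a10, an annexin partner, rose from 58.2 ± 1.23 to 158 ± 2.99 CPM (± SD, n = 3 per group; log2 fold change 1.44, adjusted p = 1.21e-04, edgeR). Fkbp5, a target of the glucocorticoid receptor, and Emp1, a membrane protein, rose by 0.92 and 0.80 on the log2 scale. Lower with the block were C3, Cp, Serping1, Steap4, S1pr3 and Ptx3, of which C3, the central complement component, went from 2622 ± 516 to 2019.9 ± 540 CPM (± SD, n = 3 per group; log2 fold change -0.39, adjusted p = 7.10e-04 with the block, edgeR). Lcn2, a secreted marker of reactive astrocytes, had 1258 ± 241 CPM with DMSO and 998 ± 306 CPM with ZJU-37 (± SD, n = 3 per group) and passed neither fit.

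Regulators that drive precursors towards astrocytes were read as well, since OPCs can be turned to that fate in culture. Of 17 tested, 5 were higher and 0 lower without the block in edgeR (2 lower at an unadjusted p-value under 0.05, and 2 lower in DESeq2). These were Nfia and Nfib, nuclear factors that open glial genes (log2 fold changes 0.52 and 0.74), Sox9, which the astrocyte list also held, Rorb, an orphan nuclear receptor (0.81), and Cntfr, the receptor subunit for ciliary neurotrophic factor (0.59). The count fell to 2 without DMSO replicate 2 or ZJU-37 replicate 3 and to 3 without DMSO replicate 3 or ZJU-37 replicate 1, while Nfib and Rorb were called in each of these fits. With the block 8 were higher and 3 lower. The lower genes included Id1 and Id3, inhibitors of differentiation that BMP signalling induces (log2 fold changes -0.50 and -0.84 with adjusted p-values of 0.00368 and 0.00550, edgeR with the block). Stat3, which carries cytokine signals to the Gfap gene, had a log2 fold change of 0.09 (adjusted p = 0.555, edgeR).

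Markers of other cells moved beside the members, and their part in the members' differences was not tested. The summed microglia markers, all 12 of 12 in the table and none at 0 counts, ran from 2513 to 4297 CPM with DMSO and from 1847 to 3777 CPM with ZJU-37 and were lower in all 3 pairs. Without the block 0 of the 12 were called in edgeR (0 at an unadjusted p-value under 0.05, and 0 in DESeq2), and with it 4 were lower. The summed mature oligodendrocyte markers, 10 of 10 in the table and none at 0 counts, ran from 11189 to 22638 CPM with DMSO and from 4786 to 10100.3 CPM with ZJU-37, with Cnp called lower without the block. In DESeq2, at an unadjusted p-value under 0.05 in edgeR and with the block, 6 of the 10 were lower in each case. The summed neuron markers, 10 of 10 and none at 0 counts, ran from 789 to 1050 CPM with DMSO and from 686 to 928 CPM with ZJU-37 and were lower in all 3 pairs. Without the block 0 of the 10 were called in edgeR (2 lower at an unadjusted p-value under 0.05, and 1 lower in DESeq2), and with it 4 were lower.

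The summed OPC markers, 9 of 10 in the table, ran from 4114 to 4736 CPM with DMSO and from 4596 to 6279 CPM with ZJU-37 and were higher in all 3 pairs. Pdgfra and Cspg4 rose by 1.10 and 1.04 on the log2 scale, and Cspg5, Olig1 and Ptprz1 by 1.02, 0.64 and 0.54. Gpr17 and Nkx2-2, of OPCs that begin to differentiate, had log2 fold changes of -3.43 and -1.74 and also passed. Sox10 was the third OPC marker called lower, with a log2 fold change of -0.61 (adjusted p = 0.0430, edgeR), a call kept in 1 of the 6 fits that each left out 1 library. Olig2 had a log2 fold change of -0.07 (adjusted p = 0.737, edgeR). The call of Pdgfra was lost without DMSO replicate 2 and without DMSO replicate 3, and the OPC markers called higher went from 5 to 2 in both. Of the vascular and fibroblast list, 11 of 12 genes were in the table and Cldn5, which defines endothelial cells, was at 0 counts in every library. Without Cspg4, which OPCs share, its sum ran from 63.0 to 131 CPM with DMSO and from 37.4 to 92.1 CPM with ZJU-37. Of the ependymal list, 4 of 5 genes were in the table and their sum was at most 2.55 CPM in any library.

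**Figure D5:**
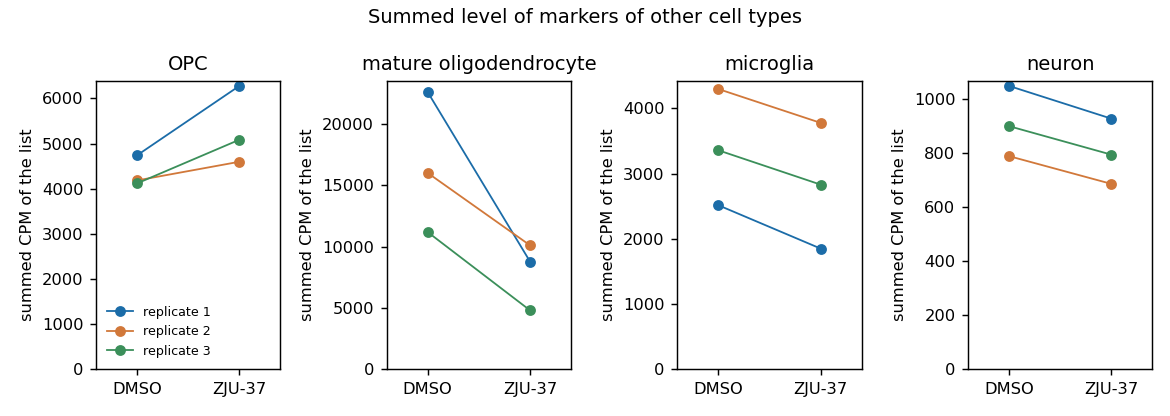
Summed CPM of marker lists of 4 other cell types in each library (linear axes from 0), with lines joining libraries of the same replicate number. OPC sums are higher with ZJU-37 in each pair, and those of mature oligodendrocytes, microglia and neurons are lower in each pair.

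The genes whose profile over the 6 libraries was most like that of Gfap, by the root mean square difference of centred log2 CPM among 10300 tested genes that averaged 10 CPM or more, were Serpini1, Col6a2, Fam163b, Mlc1 and Ptx3. Their differences ran from 0.134 to 0.207, where a flat profile would differ from Gfap by 0.579. Mlc1 and Ptx3 were on the lists above. Among the members, the most alike were Glul and Apoe at 0.200, Gfap and Aqp4 at 0.207, and Vim and Nes at 0.211, and the least alike were Nes and Aqp4 at 1.29. The 5 genes nearest to the mean profile of the tested members were Lrig1, Cers6, Pfkfb3, Lama5 and Cpxm1 (0.0354 to 0.0591). That mean mixes members that rose with members that were lower, and a flat profile differed from it by 0.190.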

How the data were processed

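Per the labels and the study's methods, the authors purified poly-A RNA, made libraries with a NEBNext Ultra kit and sequenced them as read pairs. The deposited counts are raw reads per gene that the authors obtained with featureCounts 1.5.0; their notes also list HISAT2 2.0.5 and StringTie 1.3.3b, and the genome build is not given in the sources used here. FPKM values that the authors deposited beside them served for 1 check of the order of levels. The table also holds the authors' own DESeq2 comparison, which was not used.

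Counts were filtered with filterByExpr, scaled by TMM, which gave factors from 0.981 to 1.04, and fitted in R 4.3.3. The test was that of glmQLFit (robust) and glmQLFTest in edgeR 4.0.16, with Benjamini-Hochberg adjustment over 14670 genes and a threshold of 0.05. Standard errors come from the fold change and its F statistic. The fits were tested on simulated data. The alternatives were DESeq2 1.42.0, other scalings and filters, the replicate block and leaving out each library. As a check of pairing, the departures of libraries from their group mean were correlated across genes. The same replicate number gave r = 0.50, 0.39 and 0.40, and different numbers r between -0.34 and 0.0061; the labels do not say what a number shares. The methods call the libraries biological repeats, but no source says that each came from its own culture, so p-values measure only the spread between these libraries. The members and gene lists were chosen with earlier results of these data known, and the lists came from general knowledge; 184 of the 194 genes on them beside the members were in the table. Genes of the lists were named where they passed either fit or define a cell type; Synm, Stat3, Lcn2 and Gjb2 were named after their values were seen. Some genes of the lists are counted but not reported here by name. No member's annotated span overlapped another gene of the table.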

Additional observations from a re-analysis of the deposited data

How the results depend on the processing

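Vim, Nes and Aldoc kept their direction and their side of the threshold under DESeq2, both other scalings, both other filters, the replicate block and without each library in turn. With the replicate block the members called lower went from 1 to 5. The log2 fold changes of the 4 added were -0.75 (Gfap), -0.97 (Aqp4), -0.51 (Gja1) and -0.39 (Apoe), and the block changed no other member's call. Over all genes it gave 2371 higher and 2334 lower, against 1383 and 818 without it. Leaving out each replicate number in turn from the fit with the block was added after seeing the data. Without replicates 1, 2 and 3, Gfap was then at -0.63, -0.79 and -0.83, Aqp4 at -0.89, -0.998 and -1.01, Gja1 at -0.44, -0.62 and -0.47, and Apoe at -0.35, -0.43 and -0.40, each past the threshold. Without replicate 1 that fit called 2706 genes higher and 2179 lower, without replicate 2 1679 and 1694, and without replicate 3 1386 and 1075.

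Without the block, leaving out 1 library moved the genes called higher to between 858 (without DMSO replicate 2) and 1259, and those called lower to between 374 (without ZJU-37 replicate 3) and 668, with 448 without DMSO replicate 2 and 498 without DMSO replicate 1. Aldh1l1 ran from -0.53 to 1.19e-04 on the log2 scale, and Glul from -0.23 to 0.036, with the sign turned without DMSO replicate 3 and without ZJU-37 replicate 1 in turn. The 3 libraries per group limit the precision, and Gjb6 and Gjb2 were too shallow to test. What a shared replicate number stands for was not tested, and neither was the cause of the difference between the fits.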
